A study of Mus musculus with 88 samples.

Results

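The Fbxw genes that lie side by side on mouse chromosome 9 were followed in single oocytes of young and old females. 10 genes were listed (Fbxw13, Fbxw14, Fbxw15, Fbxw16, Fbxw18, Fbxw20, Fbxw21, Fbxw22, Fbxw24 and Fbxw28), and each was looked up in the deposited table of 38540 transcript features by its name in the study's own gene table, or otherwise through GENCODE M21, as the same-strand gene span that overlapped the feature best, with a shared fraction of the joint span (Jaccard index) of at least 0.3. 8 of the 10 genes had a feature by this rule. Because Fbxw22 and Fbxw28 fell in the same feature, the 8 genes are read through 7 features. Fbxw18 and Fbxw24 had none and were seen only within a longer merged feature, described with the neighbours.

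The study profiled RNA of fully grown germinal vesicle (GV) oocytes, arrested in prophase of the first meiotic division, by Smart-seq2 on the RNA side of scM&T-seq. Oocytes came from virgin females of the strain C57BL/6Babr with no other genotype or treatment, aged 12 weeks in the young group and 44 to 54 weeks in the old group. Of 42 young oocytes, 30 were assigned to the non-surrounded nucleolus (NSN) chromatin configuration and 12 to the more mature surrounded nucleolus (SN) configuration, and of 45 old oocytes 37 were NSN and 8 SN. These configurations were predicted by the study from transcripts of the same oocytes, so comparisons of SN with NSN are descriptions, and the 46th old oocyte, 48A, had no configuration and was left out of the main values. It was taken to be the oocyte that the study excluded as an outlier.

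F-box proteins are the substrate-binding part of SCF ubiquitin ligases, in which Skp1 holds the F-box, Cul1 is the scaffold and Rbx1 recruits the ubiquitin-conjugating enzyme. In Fbxw proteins the F-box is followed by WD40 repeats, which form a propeller-shaped surface that binds the protein to be ubiquitinated. The chromosome 9 cluster is a tandem array of closely similar genes known for transcripts abundant in oocytes, and little is established about the substrates of single members. No tissue other than the oocyte was measured, so whether these transcripts are specific to it could not be examined here.

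In GENCODE M21 (GRCm38) the array covered 651 kb on the minus strand, chr9:109139447-109790670, with 15 Fbxw genes, of which 14 were protein coding. Along it, Fbxw21 was measured by the feature TCONS_00107336 (chr9:109131089-109162550), Fbxw13 by TCONS_00107342 (chr9:109179222-109197189) and Fbxw20 by TCONS_00107347 (chr9:109210907-109234993). Fbxw14 was measured by TCONS_00107352 (chr9:109270836-109287900), Fbxw28 together with Fbxw22 by TCONS_00107355 (chr9:109322472-109404802), Fbxw16 by TCONS_00107362 (chr9:109432319-109449553) and Fbxw15 by TCONS_00107379 (chr9:109552604-109568553). The feature of Fbxw28 and Fbxw22 also spans the annotated genes Gm25484 and Gm24641. Each of the 7 features had counts in 87 of 87 oocytes. By mean count, which is not corrected for length, they ranked between 58 (Fbxw15) and 1081 (Fbxw13) among all features, and the other 5 stood between ranks 67 and 223.

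The members resembled each other closely in sequence, which is shown first because it bears on every count below. Over the coding sequences of the 14 protein-coding genes, identity in the 91 pairs ran from 79.2% to 99.1% with a median of 83.75%, alignment gaps counted as differences, here and for the promoters. The closest pair was Fbxw14 and Fbxw28, at 99.1%. Likeness extended upstream of the genes. 12 of the 15 genes matched a RefSeq promoter entry (GRCm38.p6, 250 bases before to 50 after the annotated start), and apart from Fbxw23, annotated as a pseudogene, the 11 promoters were between 64.7% and 97.0% identical, with a median of 85.6% over 55 pairs. Pairs that included Fbxw23 reached 41.5% to 47.4%, or 56.9% to 63.1% without the gaps. The longest stretch of bases common to all 11 was GACTTAGGCCAC, found on either strand in 0 of 32838 promoter entries outside the cluster and not in that of Fbxw23. Below, the promoters are given 5′ to 3′ for the closest pair, Fbxw14 (chr9:109287627-109287926, minus strand) and Fbxw28 (chr9:109339610-109339909, minus strand), for the member with the highest level, Fbxw15 (chr9:109568213-109568512, minus strand), and for Fbxw20 (chr9:109234705-109235004, minus strand), which varied least with the rest. Capitals mark the common stretch, which was picked from the 11 promoters themselves. How often a stretch of its length is absent from other promoters by chance was not tested.
Fbxw14: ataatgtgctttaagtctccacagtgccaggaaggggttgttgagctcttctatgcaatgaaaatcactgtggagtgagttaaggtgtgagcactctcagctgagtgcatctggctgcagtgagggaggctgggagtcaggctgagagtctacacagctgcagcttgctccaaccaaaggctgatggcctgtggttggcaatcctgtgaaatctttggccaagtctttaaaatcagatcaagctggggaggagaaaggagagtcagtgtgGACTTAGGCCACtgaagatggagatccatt
Fbxw28: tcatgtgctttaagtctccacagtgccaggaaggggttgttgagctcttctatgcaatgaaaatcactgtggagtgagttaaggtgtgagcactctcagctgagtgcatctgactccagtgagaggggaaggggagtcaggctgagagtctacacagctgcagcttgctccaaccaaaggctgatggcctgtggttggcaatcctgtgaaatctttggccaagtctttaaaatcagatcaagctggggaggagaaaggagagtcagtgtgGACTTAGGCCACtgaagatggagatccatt
Fbxw15: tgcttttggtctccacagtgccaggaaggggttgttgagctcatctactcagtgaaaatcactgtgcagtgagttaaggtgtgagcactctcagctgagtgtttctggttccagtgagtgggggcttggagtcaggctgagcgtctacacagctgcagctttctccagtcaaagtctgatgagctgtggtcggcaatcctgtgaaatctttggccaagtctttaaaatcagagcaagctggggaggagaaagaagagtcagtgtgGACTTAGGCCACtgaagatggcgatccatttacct
Fbxw20: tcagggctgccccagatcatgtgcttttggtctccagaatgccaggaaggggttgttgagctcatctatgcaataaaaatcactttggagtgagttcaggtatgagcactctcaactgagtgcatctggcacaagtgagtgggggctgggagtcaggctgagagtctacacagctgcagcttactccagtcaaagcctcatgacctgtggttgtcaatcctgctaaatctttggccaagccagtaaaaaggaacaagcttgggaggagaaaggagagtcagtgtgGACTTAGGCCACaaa
The stretch begins at base 16 of the transcript in Fbxw15, at base 21 in Fbxw14 and Fbxw28 and at base 36 in Fbxw20, counted from 1 at the annotated start.

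Common promoter elements were searched on both strands in these windows. An E-box, CANNTG, the site of basic helix-loop-helix factors, was present in 12 of 12 cluster promoters and in 72.3% of 32851 promoter entries. The TATA box letters TATAAA were in 0 of 12 against 13.6% of all entries, and the homeobox letters TAATTG and TAATTA were in 0 of 12 against 8% and 5.29%. TGATTG occurred in 1 (Fbxw16, 14% of all entries), CCAAT in 2 (Fbxw16 and Fbxw23, 37.4%) and GGGCGG in 1 (Fbxw18, 35.7%). A match describes letters only, and a missing match says no more than that these letters are not in the window. As 11 of the 12 promoters resemble each other, they are not independent. A count out of 12 therefore cannot be weighed against the share of all entries. Fbxw13, Fbxw22 and Fbxw27 matched no promoter entry.

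How far reads can be told apart between members differs from gene to gene. Reads were 100 bases long, and 44.8% of the 100-base windows of the Fbxw14 transcript also occurred in Fbxw28, while 46.2% of those of Fbxw28 occurred in Fbxw14. For the other cluster genes at most 3.69% of windows occurred in another gene of the array, and Fbxw22, Fbxw16 and Fbxw24 among the members shared none. Windows found in genes outside the array were 8.30% for Fbxw16 (in Gm42494) and 5.01% for Fbxw15 (in Gm42756). Counts of Fbxw14 and of the Fbxw28 and Fbxw22 feature are therefore uncertain as to which of the 2 genes they belong to, since the authors kept primary alignments and the counting program and its strand setting are not given in the sources used here. Features on the opposite strand held 1.5% of the count of Fbxw13, 0.192% of that of Fbxw28 and Fbxw22 and 0.00755% of that of Fbxw15, and no other member had one.

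Young oocytes held 1579196 to 8231046 counts each, with a median of 3002989, and old ones 976456 to 5448310, with a median of 2379884. A group's level is its summed count over its summed total, scaled to counts per 1e+06 (CPM). SDs are over oocytes, and 95% intervals (exact, Poisson for levels and Clopper-Pearson for ratios) cover counting error only, as the reads carry no molecular identifiers. By the study's methods there were far fewer females than oocytes in each age group, and fewer young than old females, and which mouse gave which oocyte cannot be read from the labels. Each age group is therefore 1 sample, no difference has a replicate check, and no p-value is given. The oocyte identity was clear: 10 of 12 listed oocyte markers had a feature and none was at 0, their summed level was 11770 to 32180 CPM per oocyte, that of 12 granulosa markers was 27.6 to 119 CPM, and those of theca and stroma (4 genes, 1 at 0) and of blood and immune cells (4 genes, 2 at 0) were at most 3.45 and 48.6 CPM. Oocyte names fall into 6 series of consecutive numbers, 3 of each age, called runs here. What a run stands for is not given, and runs are used only to describe spread.

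Together the 7 features took 0.57% of all counts in young and 0.61% in old oocytes. Per kilobase of the GENCODE transcript, which can be given only for the 6 features that hold 1 gene, Fbxw15 stood highest in young NSN oocytes at 832 CPM per kb (SD 105), followed by Fbxw16 at 758 (SD 119), Fbxw21 at 523 (SD 63.0), Fbxw20 at 368 (SD 38.3), Fbxw14 at 346 (SD 28.4) and Fbxw13 at 119.5 (SD 18.2). The order had 2 pairs of neighbours closer to each other than their SDs, Fbxw15 with Fbxw16 and Fbxw20 with Fbxw14. In old NSN oocytes the top 3 and the lowest were the same (895, 806, 527 and 131 CPM per kb), while Fbxw14 at 390.0 (SD 53.8) and Fbxw20 at 388.0 (SD 55.6) were again within 1 SD of each other and exchanged places.

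Per oocyte, the groups overlapped for every member. Fbxw15 ran from 926 CPM over a median of 1233 to 1561 in the 30 young NSN oocytes and from 953 over 1272 to 1946 in the 37 old NSN oocytes. In SN oocytes it ran from 1118 over 1187 to 1561 in the 12 young and from 1227 over 1380.5 to 1519 in the 8 old. Of these, 5 old NSN oocytes were above every young NSN oocyte, and 8 of 8 old SN oocytes were above the young SN median. Summed, Fbxw15 stood at 1244 CPM (SD 157) in young NSN, 1338 (SD 230.0) in old NSN, 1231 (SD 147) in young SN and 1399 (SD 117) in old SN oocytes.

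**Figure D1:**
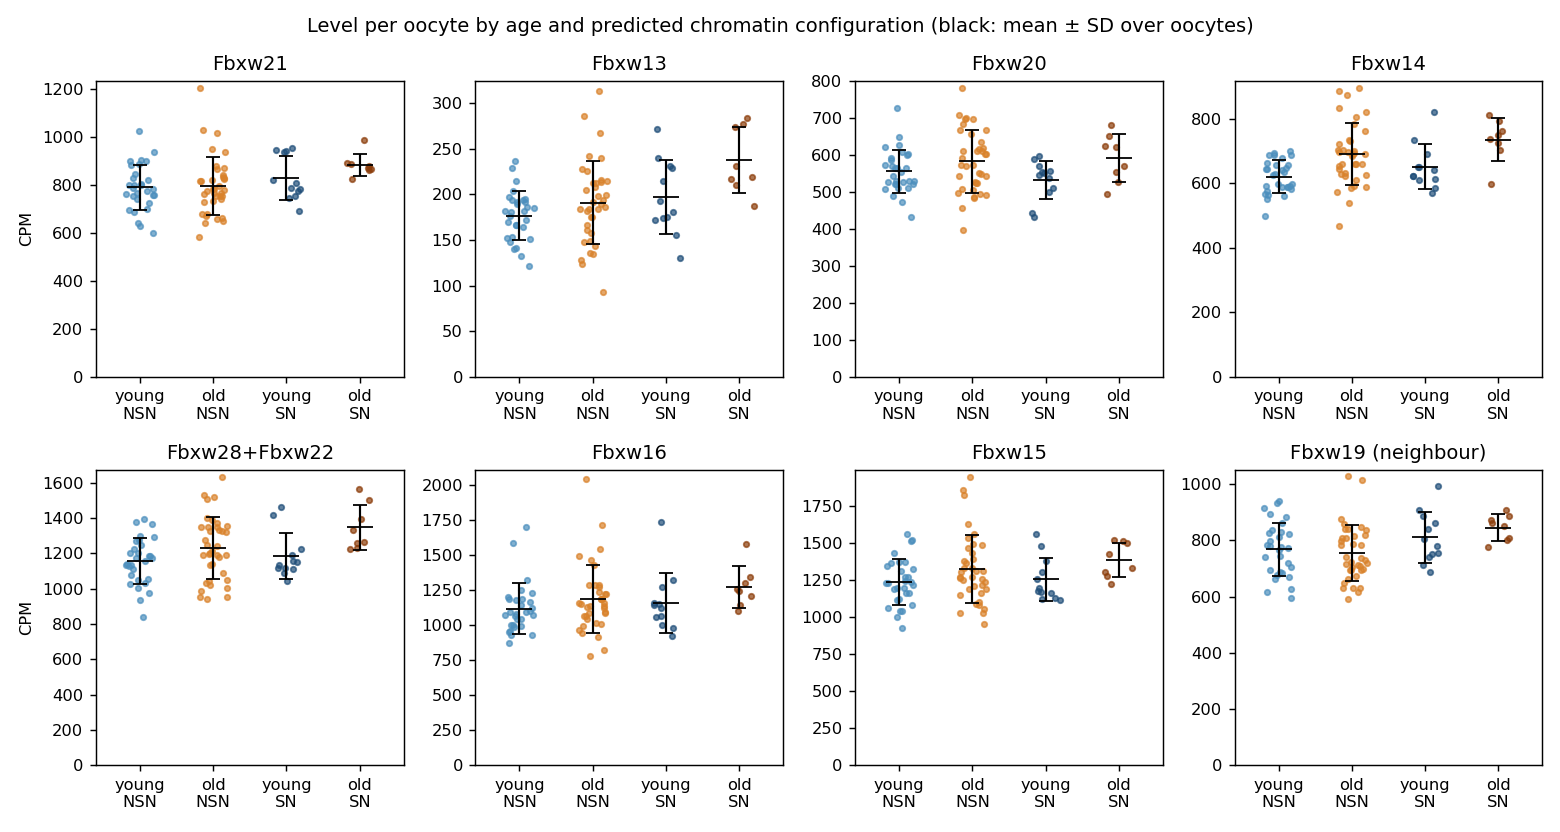
Level of each of the 7 features and of the neighbour Fbxw19 in CPM on a linear axis from 0, 1 point per oocyte, in young NSN (30), old NSN (37), young SN (12) and old SN (8) oocytes, with the mean and SD over oocytes in black. The clouds of all groups overlap for every gene, and the old NSN cloud is the widest one for Fbxw15, from 953 to 1946 CPM.

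Fbxw16 was more scattered. It ran from 871 CPM over 1089 to 1705 in young NSN oocytes, from 782 over 1154 to 2048 in old NSN, from 922 over 1133 to 1738 in young SN and from 1101 over 1253 to 1584 in old SN. Old NSN oocytes reached beyond the young NSN range on both sides, with 2 above and 2 below it, and 0 old SN oocytes were above the young SN maximum. Its summed levels were 1135 (SD 179), 1207 (SD 241), 1107 (SD 215) and 1282 (SD 149) CPM in the same order of groups.

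The feature of Fbxw28 and Fbxw22 ran from 841 CPM over 1166 to 1397 in young NSN oocytes and from 943 over 1213 to 1634 in old NSN. In SN oocytes it ran from 1045 over 1144 to 1464 in young and from 1225 over 1299.7 to 1563 in old. All 8 old SN oocytes were above the young SN median and 2 were above the young SN maximum. Since 2 genes feed this feature, its level belongs to neither alone.

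Fbxw21, first in the array, ran from 599 CPM over 786 to 1025 in young NSN oocytes, from 584 over 781 to 1204 in old NSN, from 694 over 798 to 954 in young SN and from 825 over 875 to 989 in old SN. Young and old NSN oocytes differed by 0.0457 of the larger SD, and the old ones reached both lower and higher. All 8 old SN oocytes exceeded the young SN median, and 1 exceeded the young SN maximum.

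Fbxw14 showed the clearest age difference in NSN oocytes. It ran from 499 CPM over 628 to 702 in young NSN and from 467 over 690.0 to 896 in old NSN oocytes. 13 of the 37 old NSN oocytes lay above the highest of the 30 young NSN oocytes, against 1 to 5 for the other 6 features. Most of the 13 were of old run 3. The log2 ratio in NSN oocytes, old over young, was 0.17, and 0.06 without that run. Of the old NSN oocytes, 28 lay above the young NSN median. In SN oocytes it ran from 569.6 over 632 to 822 in young and from 596 over 742 to 813 in old.

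Fbxw20 ran from 433 CPM over 549.6 to 726 in young NSN oocytes, from 397 over 573 to 781 in old NSN, from 434 over 549.5 to 597 in young SN and from 494 over 597 to 682 in old SN. Its highest young SN oocyte was exceeded by 4 of the 8 old SN oocytes, and 2 old SN oocytes were below the young SN median. Fbxw13, the member with the lowest level, ran from 122 over 181 to 236 in young NSN, from 92.7 over 189 to 313 in old NSN, from 129.9 over 187 to 271 in young SN and from 187 over 225 to 284 in old SN. All 8 old SN oocytes exceeded its young SN median and 3 the young SN maximum.

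In relation to total counts, old oocytes held slightly more RNA of each of the 7 features than young ones, a direction that did not hold for all 7 in every subset of oocytes. Over all 87 oocytes the median log2 ratio of the 7 features, old over young, was 0.12, with 7 of 7 above 0, where 47.7% of the 12408 features that averaged 10 counts or more per oocyte, and 60.6% of the 464 that averaged 1000 or more, were above 0. Fbxw14 had the highest ratio, 0.17 (95% interval 0.16 to 0.19), and Fbxw21 the lowest, 0.03 (0.01 to 0.04). The difference was 0.739 of the larger SD over oocytes for Fbxw14 and between 0.087 and 0.498 for the other 6, so all lay within the spread between oocytes. A log2 ratio of 0.32 in either direction was the limit for a named difference, and 0 of 7 passed it. It was passed by 4.51% of the 12408 features and by 0.65% of the 464 that averaged 1000 or more. With only oocytes whose name has no suffix A, 5 of 7 features were above 0, with Fbxw16 at -0.04 and Fbxw21 at -0.03, and without young run 2, one of the name runs, 6 of 7 were, with Fbxw21 at -0.03. The sum of the 7 features was 5679 CPM (SD 520) in young and 6117 (SD 779) in old oocytes, a log2 ratio of 0.11.

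Within NSN oocytes the median log2 ratio, old over young, was 0.09 and again 7 of 7 features were above 0. Above 0 were also 47.2% of all features and 59.7% of the 464 abundant ones. Fbxw14 was at 0.17 (0.16 to 0.19), Fbxw13 at 0.14 (0.10 to 0.17), Fbxw15 at 0.10 (0.09 to 0.12), Fbxw16 at 0.09 (0.08 to 0.10), Fbxw28 with Fbxw22 at 0.08 (0.07 to 0.10), Fbxw20 at 0.07 (0.06 to 0.09) and Fbxw21 at 0.01 (-0.00 to 0.03). 0 of 7 passed the limit of 0.32, against 5.89% of all and 0.65% of the abundant features. Fbxw16 was at 0.28 with suffix A only and at -0.12 without the suffix. With medians over oocytes, and also without young run 2, 6 of 7 features were above 0, Fbxw21 being below. The median sum of the 7 features per oocyte was 5651 CPM in young and 5755 CPM in old NSN oocytes. Within SN oocytes the median was 0.20, with 7 of 7 above 0 (48.7% of all and 52.8% of the abundant features). 0 of 7 were past the limit, against 16% of all and 1.94% of the abundant features. Fbxw13 came nearest to it there, at 0.29 (0.24 to 0.34), and Fbxw20 was lowest at 0.10 (0.07 to 0.14). For Fbxw14 and for Fbxw28 with Fbxw22, the SN difference exceeded the larger SD over oocytes (1.2 and 1.26 SDs), as did the sum of the 7 features (1.11 SDs). For the sum, 8 of 8 old SN oocytes lay above the young SN median, at 6164 to 6941 CPM, and 0 above the young SN maximum of 7142 CPM. The SN groups hold only 12 and 8 oocytes.

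**Figure D2:**
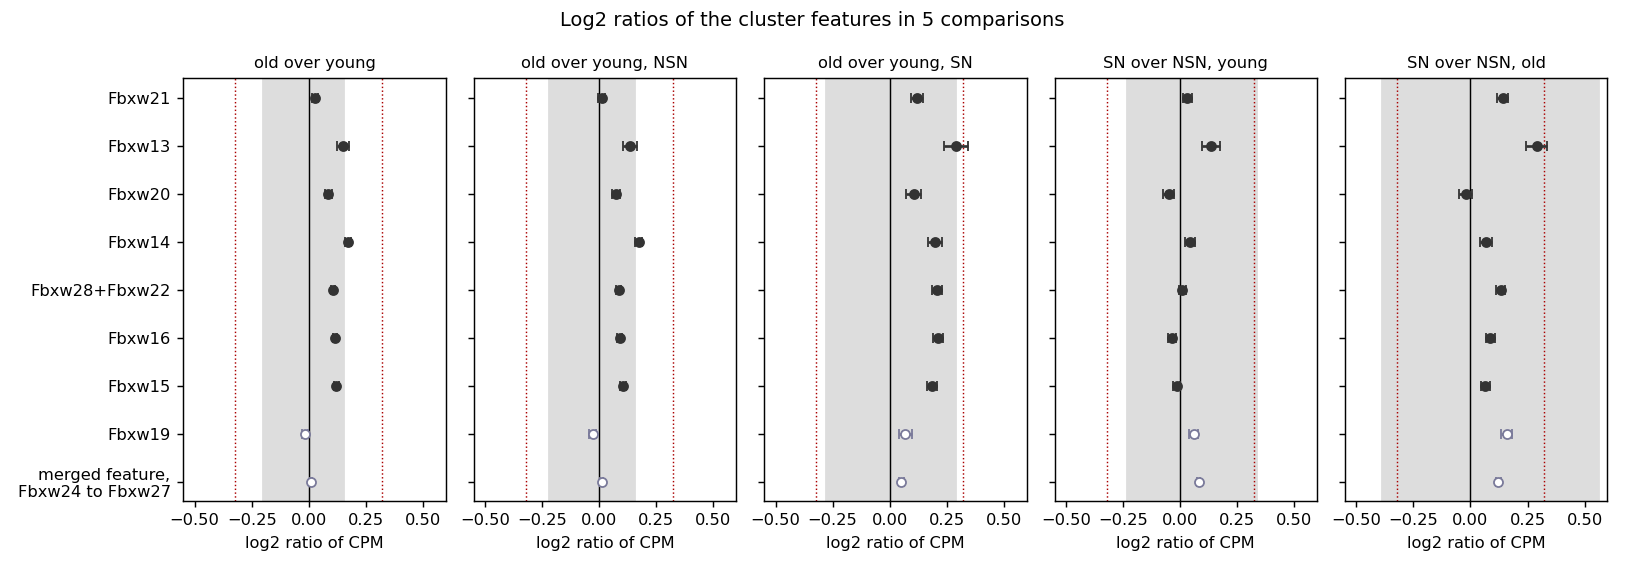
Log2 ratio of summed CPM of the 7 features (filled) and of Fbxw19 and the merged feature (open) in 5 comparisons, with 95% counting intervals, the span between the 10th and 90th percentiles of 12408 features in grey and the limit of 0.32 as dotted lines. All 7 filled points are right of 0 in the 3 age comparisons, and none passes a dotted line in any of the 5.

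The age difference in NSN oocytes was not spread evenly over the runs of names. The sum of the 7 features stood at 5920 CPM in young run 1 (13 NSN oocytes), 5350 in young run 2 (10) and 5681 in young run 3 (7), and at 5922 in old run 1 (14), 5318 in old run 2 (11) and 6723 in old run 3 (12). Old run 3 was thus high and the other 2 old runs lay close to the range of the young ones. It was the highest of the 6 runs for 7 of 7 features, which holds for 18.9% of all features and for 29.1% of the 464 abundant ones. The lowest run was old run 2 for 4 features and young run 2 for 3. For 0 of 7 features did the 3 old runs lie apart from the 3 young runs, as they did for 13.1% of all features.

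Single members varied in the order of the other runs. Fbxw15 was at 1320, 1115 and 1283 CPM in young runs 1 to 3 and at 1321, 1144 and 1505 in old runs 1 to 3. Fbxw14 was at 635, 589 and 626 in the young and at 679, 607 and 781 in the old runs. Fbxw21, with the smallest age difference, was at 853, 702 and 797 in the young and at 806, 693 and 872 in the old runs. Without old run 3, the median log2 ratio in NSN oocytes was -0.01 and 2 of 7 features were above 0, with Fbxw14 still at 0.06. Over both configurations it was 0.012 without that run, with 6 of 7 above 0, and in SN oocytes 0.13, with 7 of 7 above 0. What sets old run 3 apart was not tested.

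**Figure D3:**
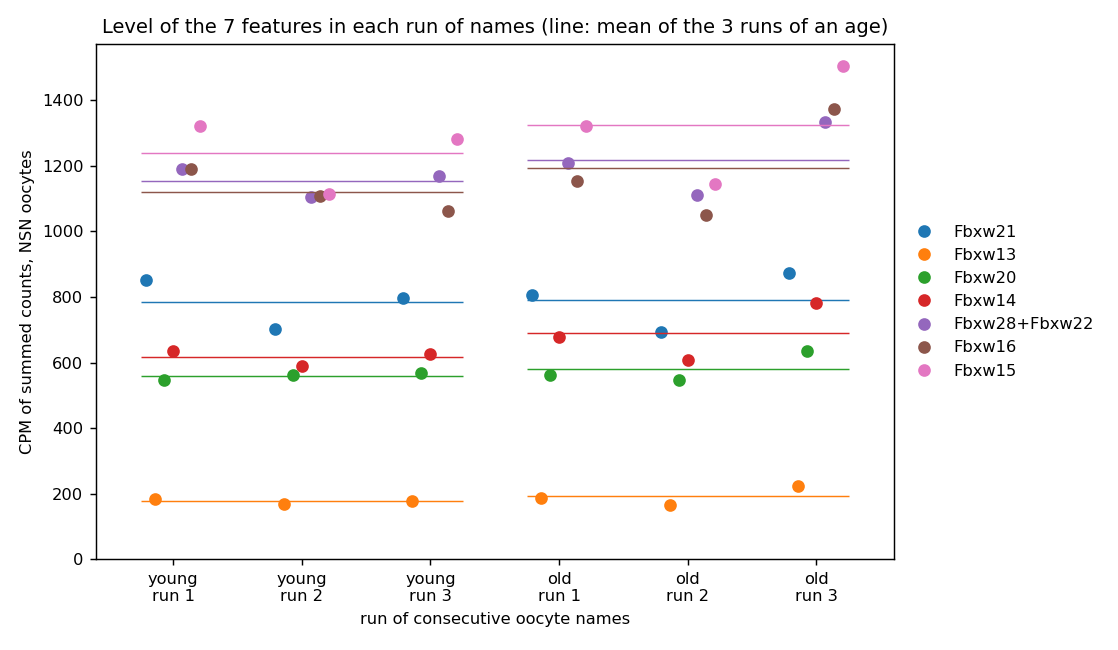
CPM of summed counts of NSN oocytes in each of the 6 runs of consecutive oocyte names, on a linear axis from 0, 1 colour per feature, with a line at the mean of the 3 runs of an age. Old run 3 is the highest run for all 7 features, and the other 2 old runs fall among the young runs or next to them.

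Between the chromatin configurations no member passed the limit. In young oocytes the median log2 ratio, SN over NSN, was 0.01, with 4 of 7 features above 0 (51.4% of all features) and 0 of 7 past a log2 ratio of 0.32 (15.3% of all and 3.23% of the 464 abundant features). The ratios ran from -0.05 for Fbxw20 to 0.14 for Fbxw13, and the sum of the 7 was 5679 CPM in NSN (SD 496) and 5681 in SN (SD 581). In old oocytes the median was 0.09, with 6 of 7 above 0 (49.4%) and 0 of 7 past 0.32, which 34.7% of all and 18.5% of the abundant features passed. Fbxw13 was highest at 0.29 (0.24 to 0.34), a difference of 1.02 of the larger SD, and Fbxw20 lowest at -0.02 (-0.05 to 0.01). The sum was 6046 CPM in old NSN (SD 833) and 6451 in old SN oocytes (SD 240). For comparison, of the 10 measured oocyte markers 9 passed 0.32 upwards and 1 downwards in SN over NSN oocytes of old females. In young females 4 did upwards and 1 downwards. The median log2 ratios were 0.53 and 0.31. Over all features 20.0% passed upwards and 14.7% downwards in old females, and 10.9% and 4.38% in young ones. Old over young, 1 of the 10 markers was above 0 over all oocytes (median -0.09) and 8 were in SN oocytes (median 0.12).

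The members also varied more between oocytes in the old group. Dispersion was taken as the squared coefficient of variation of size-factor-normalised counts after subtraction of counting noise. Over all oocytes it was higher in old than in young for 7 of 7 features. The same held for 73.8% of 12145 features and for 80.8% of 412 abundant ones. The median log2 ratio of the 7 was 0.84, against 0.46 over the 12145 features and 0.56 over the abundant ones. Fbxw14 had the largest ratio, 1.26 (dispersion 0.00878 in young and 0.0210 in old), and Fbxw16 the smallest, 0.56 (0.0299 and 0.0440), which turned to -0.25 without old run 3. In NSN oocytes the ratios ran from 0.81 for Fbxw28 with Fbxw22 to 1.90 for Fbxw14, with 7 of 7 above 0. Above 0 were also 73.7% of all and 83.25% of abundant features. The median was 1.00 against 0.52 over all and 0.69 over abundant features. In SN oocytes the sign was opposite, with 1 of 7 above 0 (Fbxw20, 0.89) and a median of -0.98, where 42.2% of all and 29.7% of abundant features were above 0, with medians of -0.29 and -0.61. A dispersion over 8 oocytes is imprecise.

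The difference in spread was smaller when taken within runs than over whole age groups. Within runs of names the median log2 ratio of dispersion of the members was 0.54, next to 0.43 over all and 0.48 over abundant features. Above 0 were 7 of 7 members, 71.8% of all and 77.7% of abundant features. Over whole age groups, the median of 0.84 was 0.61 without old run 3 and 0.52 without old run 2.

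**Figure D4:**
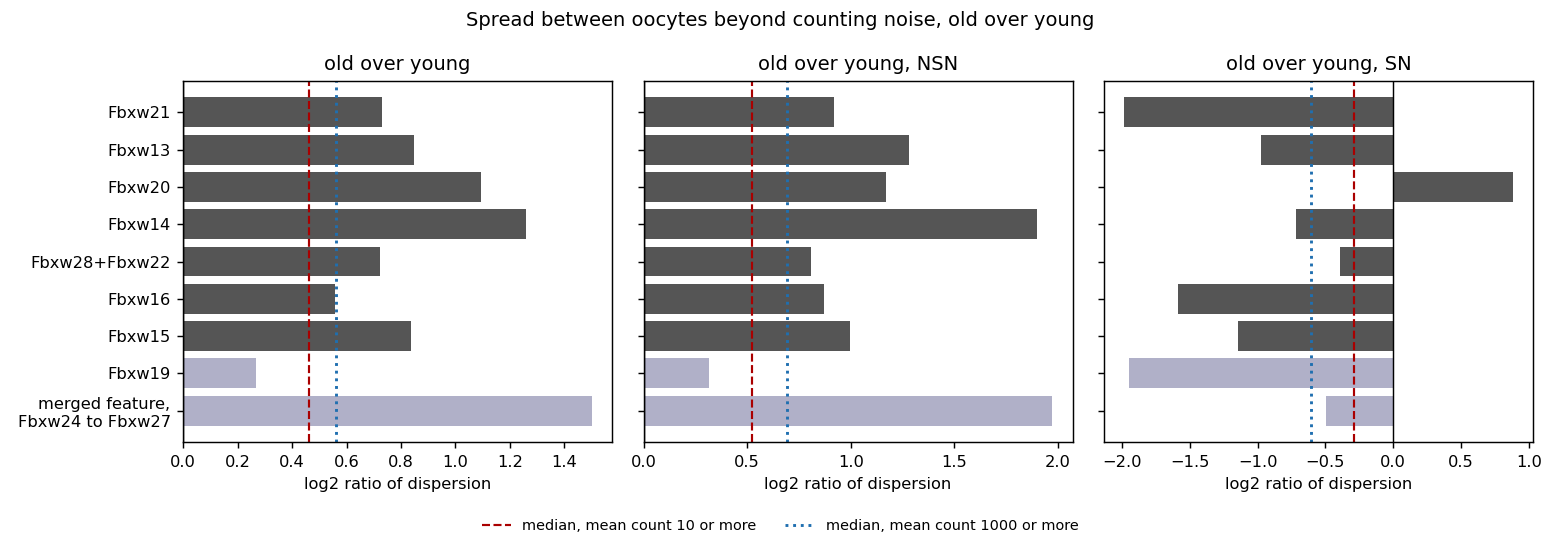
Log2 ratio of dispersion between oocytes, old over young, of the 7 features (dark bars) and of Fbxw19 and the merged feature (pale bars), for all oocytes, NSN and SN oocytes, with the medians over features with mean counts of at least 10 and at least 1000 as dashed and dotted lines. Dark bars lie right of 0 in the first 2 panels, from 0.56 to 1.90, and all but that of Fbxw20 lie left of 0 among SN oocytes.

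Oocytes high in 1 member tended to be high in the others. With each age and configuration group centred on its own mean, all 21 pairs of the 7 features had a positive Pearson r of log2(CPM + 1) over 87 oocytes, from 0.13 to 0.71 with a median of 0.49. Pairs among the 464 abundant features had a median of 0.01. The highest r was that of Fbxw21 with Fbxw15, 0.71, followed by Fbxw13 with Fbxw15, 0.66. Fbxw14 and the feature of Fbxw28 with Fbxw22 had 0.59, above the median of 0.49 but below the 0.66 and 0.71 of these pairs. How far reads shared between the near-identical Fbxw14 and Fbxw28 shaped this r was not tested. Fbxw20 varied least with the rest, with 0.13 to Fbxw21 and 0.27 to Fbxw13, but 0.58 to Fbxw28 with Fbxw22. With oocytes centred within runs the 21 pairs were still positive, from 0.06 to 0.60 with a median of 0.42, and the summed level had r = -0.15 with the logarithm of the total count. The oocytes share their libraries' depth and composition, so these correlations are descriptions.

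**Figure D5:**
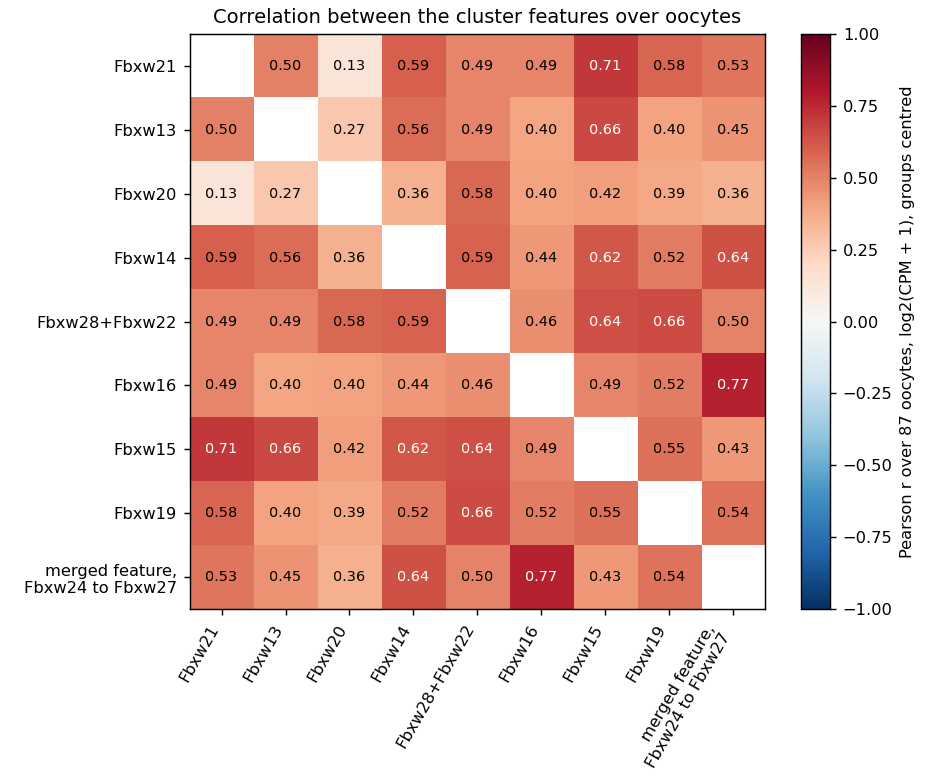
Pearson r over 87 oocytes, of log2(CPM + 1) with age and configuration groups centred, between the 7 features, Fbxw19 and the merged feature, coloured from blue at -1 to red at 1. All cells are positive, the palest being Fbxw20 with Fbxw21 at 0.13 and the darkest Fbxw16 with the merged feature at 0.77.

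Among 5359 other features that averaged at least 100 counts, the 5 most like the mean of the members were the merged Fbxw feature (r = 0.70), the predicted gene Gm17494 (0.70), Nlrp14 (0.69), an oocyte gene of the NLR family, Oog4 (0.69), of the oogenesin family, and the cluster neighbour Fbxw19 (0.68). The median r over these features was -0.06 and the 99th percentile 0.54. In 5 alternative settings, 2 to 4 of the 5 stayed among the top 5. Nlrp14 stood at 6087 CPM, Oog4 at 900 and Gm17494 at 208, and none of the 5 had a log2 ratio, old over young in NSN oocytes, above 0.05.

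The rest of the array was seen through 2 features. Fbxw19 (TCONS_00107371) stood at 766 CPM in young NSN (SD 95.0), 750.2 in old NSN (SD 100.2), 798 in young SN (SD 89.6) and 837 in old SN oocytes (SD 46.7). Its log2 ratio, old over young, was -0.02 over all oocytes, -0.03 in NSN and 0.07 in SN oocytes, and that over all oocytes changed sign in 5 of 15 alternatives. It was highest in young run 1 at 817 CPM and at 769.7 in old run 3. TCONS_00107388 (chr9:109601117-109790907) spans 190 kb and 5 Fbxw genes, Fbxw24, Fbxw25, Fbxw18, Fbxw26 and Fbxw27, each overlapping it with an index of at most 0.150, so that Fbxw18 and Fbxw24 cannot be read from it singly. It ranked 6 of all features, at 4579 CPM in young NSN (SD 449), 4611 in old NSN (SD 824), 4843 in young SN (SD 594) and 5017 in old SN oocytes (SD 525). Old over young it was at 0.01 both over all and in NSN oocytes, and changed sign in 6 of 15 and 5 of 13 alternatives. Its dispersion had a log2 ratio of 1.5, larger than that of any of the 7 features. With these 2 features the array took 1.11% of counts in young and 1.16% in old oocytes.

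Fbxw genes elsewhere in the genome did not share the direction of the members as a list. Of 10 listed, 8 had a feature, with 2 of 8 above 0, a median log2 ratio, old over young, of -0.05 and 1 past the limit of 0.32, Fbxw8, at -0.34. CPM in this and the next paragraph are not corrected for transcript length. Btrc, the F-box protein that recognises phosphorylated beta-catenin, stood at 279 CPM (log2 ratio 0.00), followed by Fbxw4 at 128 (0.10) and Fbxw11, the paralogue of Btrc, at 70.0 (-0.09). In SN over NSN oocytes of old females 4 of 8 passed it upwards: Fbxw2 (0.71), Fbxw11 (0.52), Fbxw8 (0.48) and Fbxw7 (0.44), the F-box protein for cyclin E, with a median of 0.30 over the list. In young females 2 of 8 did, Fbxw11 (0.36) and Fbxw8 (0.33). Over all features, 20.0% passed the limit upwards in old and 10.9% in young females.

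Of the 15 SCF core genes, 13 had counts in 87 of 87 oocytes, Ube2r2 in 86 and Ube2m in 83. Skp1a, the adaptor, stood at 3141 CPM, Cul1 at 1089 and Dcun1d1, which helps to attach Nedd8 to cullins, at 517. Of 15 genes, 12 had a log2 ratio above 0, old over young, with a median of 0.05, and 0 passed 0.32 in either direction. Above 0 were 47.7% of all and 60.6% of the 464 abundant features, and 4.51% and 0.65% passed 0.32. The ratios were 0.04 for Skp1a, 0.05 for Cul1 and 0.11 for Dcun1d1. In SN over NSN oocytes of old females Ube2f (0.54) and Cand1 (0.37), the cullin exchange factor, passed the limit upwards and Cdc34 (-0.56), an E2 enzyme, downwards. In young females Ube2f (0.44) passed it upwards and Ube2m (-0.34), which stood at only 2.23 CPM, downwards. Of 11 F-box genes of other classes, 0 passed it old over young (median -0.06). Fbxo34 stood at 487 CPM (-0.06), Fbxo38 at 194 (-0.09) and Fbxo43, an inhibitor of the anaphase-promoting complex, at 185 (0.00), and 2 passed it in SN over NSN oocytes of old females, Fbxo38 (0.40) and Fbxo15 (-0.41).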

How the data were processed

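RNA of single oocytes was captured on oligo-dT beads and amplified as Smart-seq2 cDNA. The authors mapped trimmed reads with HiSat2 to the GRCm38 build, kept primary alignments and deposited unnormalised counts for each feature of an oocyte transcript assembly in 88 oocytes. The counting program and its strand setting are not given in the sources used here. Ages came from the labels and configurations from the study's sample table, and 87 oocytes with a configuration were used. The members and gene lists were chosen with earlier results of these data known.

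Counts were summed over a group and expressed as CPM with numpy 2.4.6, pandas 2.3.3 and scipy 1.17.1 under Python 3.11.15. TMM factors came from edgeR 4.0.16 in R 4.3.3. Since oocytes could not be assigned to mice, each age group is 1 sample and no test was run. On simulated counts for old against young, 100 genes raised by a log2 ratio of 0.32 were recovered at a median of 0.31 over 38540 features, and a log2 ratio of dispersion of 0.58 at 0.59 over 5371. Genes named are all 10 members, the measured cluster neighbours, of each further list the 3 with the highest CPM and those past a log2 ratio of 0.32 in old over young or SN over NSN, and the 5 features most like the members' mean. Alternatives covered oocytes included, normalisation, depth, estimator, name suffix, runs, fold and count minimum. A log2 value was taken as moved beyond 0.1 and a number beyond 1.5 times. The study's sample table gave the same total in 87 of 88 oocytes, and old oocyte 15 was left out as an alternative. No table columns were set aside, and no pair of oocytes had identical counts.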

Additional observations from a re-analysis of the deposited data

Results flagged for a closer look

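Old oocyte 48A, which has no predicted configuration, was taken to be the oocyte the study excluded as an outlier and entered only the alternatives with all 88 oocytes, held more of the members than any young oocyte. The sum of the 7 features was 9401 CPM in it, against at most 7142 in the 42 young and 8452 in the 45 old oocytes used. Its levels were 2153 CPM for Fbxw15, 1959 for Fbxw28 with Fbxw22, 1858 for Fbxw16, 1179.9 for Fbxw14, 1065 for Fbxw21, 821 for Fbxw20 and 366 for Fbxw13, all above the young maximum, and 0 of the 87 oocytes reached its level of Fbxw15, Fbxw28 with Fbxw22, Fbxw14, Fbxw20 or Fbxw13. Fbxw19 was at 1209 CPM and the merged feature of Fbxw24 to Fbxw27 at 6699 CPM, also above every young oocyte. The oocyte had a total of 3588332 counts, and 22.1% of 12408 features were above the young maximum in it. It carries a name of old run 3.

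Among the 8 old SN oocytes, 1 stood apart for Fbxw21, at 989 CPM, with the next at 894 and the lowest at 825, a gap of 0.578 of the range where the 95% critical value for 8 values is 0.526. It was old oocyte 15, whose total differs from that in the study's sample table, and without it the log2 ratio of Fbxw21 in SN oocytes, old over young, was 0.11 in place of 0.12. Of 10 such sets of 8 values, this was the 1 beyond that value, and chance gives about 1 in 20.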

How the results depend on the processing

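The 5 median log2 ratios of the members were recomputed under all 88 oocytes, TMM, median-of-ratios factors, thinning to 900000 counts, medians over oocytes, equal weight per run, each name suffix alone, each run left out and old oocyte 15 left out, where the setting changed the oocytes compared. In 60 of these 63 values the change was within 0.1, and 5 changed sign, 1 in NSN oocytes (without old run 3) and 4 in SN over NSN of young oocytes. With runs left out in turn, the medians ran from 0.012 to 0.18 for old over young, from -0.01 to 0.17 in NSN, from 0.13 to 0.22 in SN, from -0.04 to 0.06 for SN over NSN in young and from 0.02 to 0.18 in old oocytes. The NSN median was 0.20 with suffix A only and 0.03 without the suffix, where 4 of 7 features were above 0, and SN over NSN in old oocytes was 0.21 without the suffix. The cause was not tested. 0 of 7 features passed a log2 ratio of 0.32 under TMM or 1.5-fold from total counts, and 0 of 4 sums passed 0.32 with members that share windows added up. In SN oocytes, old over young, 1 of 7 passed it with equal weight per run, with suffix A only and without young run 2, and in SN over NSN of old oocytes 1 of 7 did without old run 3. The share of all features past 0.32, old over young, was 34.3% with no minimum count and 0.988% with a minimum of 100.

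The median log2 ratio of dispersion was 0.72 after thinning, 1.05 with all 88 oocytes, 1.00 in NSN oocytes and 0.54 within runs. In settings added after the data were seen, it was 0.52 to 1.18 with runs left out and 0.88 within runs of NSN oocytes. Of the 5 most similar features, 2 remained among the top 5 without centring, 2 with Spearman's rho, 3 in NSN oocytes and 2 with centring within runs, the last added after the data were seen. Past 1.5-fold, old over young, the other Fbxw genes counted 0 in place of 1 (NSN 0 in place of 1). In SN over NSN of young oocytes they counted 0 at 1.5-fold and 1 under TMM, in place of 2, and in old oocytes 1 in place of 4. SCF core genes at 1.5-fold counted 0 in each comparison, in place of 1 in SN oocytes, 2 in young and 3 in old oocytes, and other F-box genes 0 in place of 2. Levels are limited by the depth of 976456 counts in the shallowest oocyte. No paired analysis was possible because the labels pair no oocytes across ages and no result comes from a test.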
